A study of Danio rerio with 170 samples.

Results

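The effect of NB2 on gene expression at 72 h post fertilization (hpf) was examined across all genes by comparing 5 pools of exposed embryos with 5 pools of vehicle embryos. NB2 (Nafion byproduct 2) is a polyfluoroether sulfonic acid, that is, a PFAS with ether oxygens in its chain. The embryos were zebrafish of the Tropical 5D wild-type strain. All were dechorionated, placed in 96-well plates in the dark and dosed without renewal of the medium from 6 hpf. Exposed wells held 73 µM NB2 and vehicle wells held none, and every well in either group held 1% DMSO. Each pool held 8 whole embryos, so a value is an average over all tissues and over the animals of a pool, and fewer cells of a type cannot be told apart from less RNA per cell. The columns of the 10 pools carry the letters A to E within each group. The letters name a pool here, and the labels do not say whether they pair the groups. These 10 are part of the 28 columns of a time course with 6 groups at 48, 72 and 96 hpf, in a series of 170 samples. The labels do not say that the pools came from separate clutches or plates, so the p-values measure spread between pools only. That spread was estimated for each gene over all 28 columns and not from the 10 pools alone. Where the exposed pools of 72 hpf varied more than the other groups, it understates their spread.

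Foreign chemicals that reach the liver and the gut are met by nuclear receptors that switch on oxidizing enzymes of the cytochrome P450 families, conjugating enzymes and export pumps. Immediate early genes, such as those of the fos, nr4a and egr families, are switched on within minutes of a strong stimulus, without new protein synthesis, and in neurons they mark recent electrical activity. Between hatching and first feeding the larva changes from cell division to tissue function: the liver and gut start to make their transport proteins, muscle matures, and yolk is the fuel.

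The libraries were 3′ tag libraries (QuantSeq), in which a read marks the 3′ end of a transcript. The 10 pools held between 9085082 and 13647002 reads in genes, with a median of 10419345, and between 21846 and 22669 genes with a read. The table holds 26992 genes, of which 24853 had at least 4 of the 28 columns above the lowest value and were tested. Genes of many tissues passed this filter, among them 74 skeletal muscle genes, 61 lens crystallin genes, 46 liver genes and 33 erythrocyte genes. Correlations between vehicle pools ran from 0.985 to 0.987. NB2 pool A stood apart, with correlations of 0.975 to 0.981 with the other NB2 pools. NB2 pool C was closer to the vehicle pools (median 0.984) than to the other exposed pools (median 0.981). Levels are given below as normalised reads, which are the reads of a gene divided by the size factor of the pool. Differences and their standard errors (SE) are NB2 minus vehicle on the variance-stabilized log2 scale, which understates the fold of genes with few reads.

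At 72 hpf 119 genes rose and 62 fell in NB2 at an adjusted p under 0.05 (limma, Benjamini-Hochberg), or 0.479% and 0.249% of the genes tested. In both directions together 181 genes, or 0.728%, were called. A further view of the background is that 3339 genes, 13.4% of those tested, had an unadjusted p under 0.05. The differences of the called genes were between 0.26 and 2.35 for rises, with a median of 0.69, and between 0.22 and 1.74 in size for falls, with a median of -0.76. The mean of normalised reads differed by more than 2-fold in 49 of the genes that rose and 31 of those that fell. The 2 groups of pools did not overlap in 81 of the genes that rose and in 50 of those that fell. Without any test, the groups did not overlap in 2.81% of the genes tested in either direction. The exposed pools lay wholly above the vehicle pools in 361 genes, 1.45% of those tested, and wholly below in 338, or 1.36%.

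The number of calls depended on single pools. Leaving out NB2 pool D left 58 genes and leaving out NB2 pool B left 78, while leaving out NB2 pool C gave 502. Without vehicle pool A, B or D the counts were 107, 93 and 95. In a fit of the 10 pools alone 119 genes rose and 172 fell, so that the larger share of falls or rises depended on the columns in the fit. Genes that were called with any single pool left out numbered 37 of the rises and 10 of the falls. The exposed pools were graded rather than alike. Among the 119 genes that rose, pool D was farthest from the vehicle mean in 67 and pool C was nearest in 59. The median distance from the vehicle mean over these genes was 0.98 in pool D, 0.78 in A, 0.74 in B, 0.44 in E and 0.34 in C. Pool D also had the fewest reads of the 10 pools, and the part of depth in this order was not tested. Among the 62 genes that fell, pool A was farthest in 34 and pool C nearest in 33. These orders are descriptions, since the same pools chose the genes.

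Some genes of foreign-chemical handling rose. Of 55 genes of cytochrome P450, conjugation and export tested, 5 rose and 0 fell, with a median difference of 0.06. Calls covered 9.09% of this list, against 0.728% of all genes tested. As falls were 0.249% of all genes, a list of this size without a fall is near that share. The leading member was cyp2k18, a fish member of the CYP2 monooxygenase family. It was close to silent in vehicle, with 7.77, 0.913, 2.04, 1.05 and 5.6 normalised reads in pools A to E. The NB2 pools held 71.0, 71.4, 43.8, 101 and 118. Every exposed pool therefore lay far above every vehicle pool, and the mean was 23.3-fold higher (difference 2.34 ± 0.20 SE, adjusted p = 2.4e-09, limma). The efflux pump gene abcc2, whose protein exports conjugated drugs and bile pigments across the apical membrane of liver, kidney and gut cells, held 38.9, 38.4, 33.7, 43.1 and 45.6 in vehicle. In NB2 it held 96.1, 96.4, 77.4, 90.4 and 94.4, a narrow range 2.28-fold above vehicle (0.88 ± 0.11, adjusted p = 4.5e-06). Both genes were called under each of the 20 alternative settings tried, which is not so for most of the genes below.

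The other called members of the list were cyp3a65, cyp2y3 and ahr2. Outside it, ugt5a2, tpmt.1 and abcc5 are described here for their known roles. The xenobiotic monooxygenase cyp3a65 had a vehicle mean of 18.04 ± 7.15 (SD, n = 5) and held 62.0, 43.6, 46.8, 99.8 and 35.9 in NB2, 3.196-fold higher (1.03 ± 0.19, adjusted p = 0.0032). On the recovered reads it did not pass (limma-voom, adjusted p = 0.098). The glucuronosyltransferase gene ugt5a2, whose family attaches a sugar to foreign and body compounds, had 0 reads in 2 vehicle pools and at most 6.13 in the others, against 9.24 to 25.8 in NB2 (1.00 ± 0.21, adjusted p = 0.013). The monooxygenase cyp2y3 rose 1.395-fold from 177 ± 26.9 to 247 ± 21.4. The aryl hydrocarbon receptor gene ahr2 rose 1.26-fold (0.32 ± 0.08, adjusted p = 0.032). The exporter abcc5 rose 1.29-fold and the thiopurine methyltransferase gene tpmt.1 1.77-fold. Of these, cyp3a65 was called whichever pool was left out. When each of the 10 pools was left out in turn, ahr2 and abcc5 were called in 3 of the fits and tpmt.1 in 2.

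**Figure D1:**
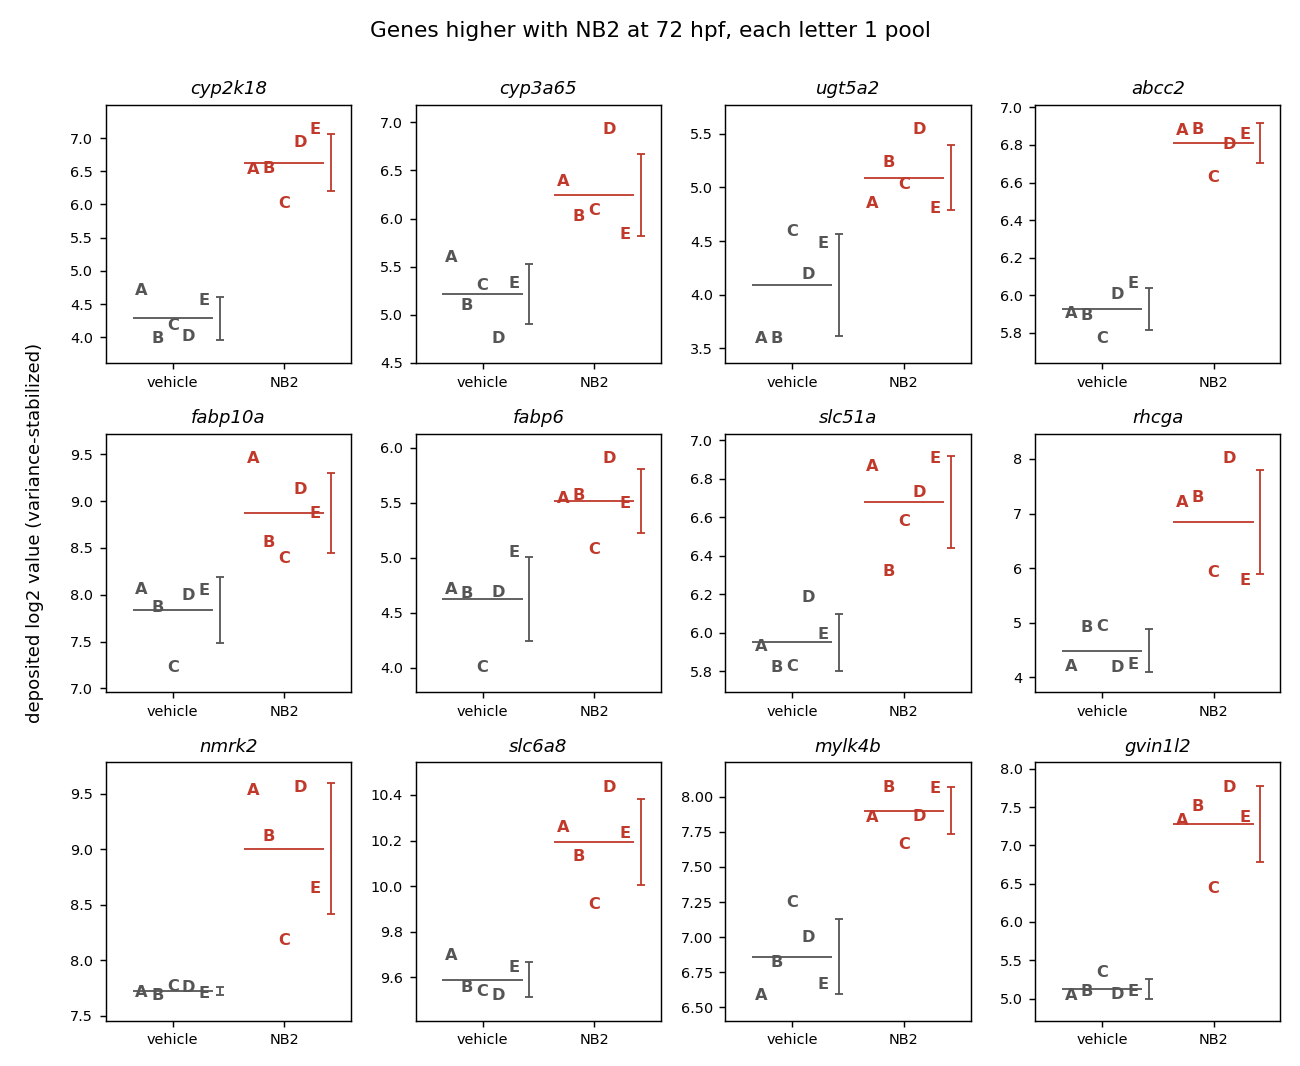
Deposited log2 values of 12 genes that rose, by pool, with letters for the vehicle and NB2 pools, a line for the mean and a bar for the SD. The cyp2k18 and abcc2 groups are wide apart, whereas exposed pool C sits nearest to vehicle in genes such as nmrk2 and slc6a8, and pool E in rhcga.

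A few transport protein genes of the liver and the gut also rose. fabp10a, the liver fatty acid binding protein of fish, held 246, 213, 129, 236 and 245 normalised reads in vehicle pools A to E. The NB2 pools held 688, 359.8, 316, 541 and 449.7. No exposed pool was as low as any vehicle pool, and the mean was 2.204-fold higher (1.04 ± 0.19, adjusted p = 0.0042). It was the only called gene of 46 liver genes tested, a list that holds the secreted plasma proteins. Of 42 intestine genes, 2 rose: fabp6, the bile acid binding protein of the ileum, from 7.41 ± 4.45 to 26.1 ± 8.71 (0.89 ± 0.17, adjusted p = 0.0036), and the acidic chitinase gene chia.5, from 2.17 ± 2.17 to 11.6 ± 4.74 (0.82 ± 0.20, adjusted p = 0.038). Of 19 bile acid genes, abcc2 and slc51a rose and cyp8b1.2 fell. slc51a encodes a subunit of the basolateral bile acid exporter and rose from a vehicle range of 35.6 to 51.5 to an NB2 range of 58.4 to 98.6 (0.73 ± 0.16, adjusted p = 0.016). cyp8b1.2 belongs to the sterol 12-hydroxylase family. It held 16 reads over the 5 vehicle pools and 0 over the exposed pools, which makes it at least 5.03-fold lower when 3 reads over the group stand for 0. Leaving out single pools ended the cyp8b1.2 and chia.5 calls. Of 22 aminotransferase genes, agxtb, which encodes an alanine-glyoxylate aminotransferase, rose. It held 18.9, 37.4, 15.3, 14.7 and 28.0 in vehicle and 87, 111, 28.5, 285 and 32.9 in NB2 (1.29 ± 0.28, adjusted p = 0.016), with pools C and E inside the vehicle range. Calls covered 2.17% of the liver, 4.76% of the intestine, 15.8% of the bile acid and 4.55% of the aminotransferase genes. Of all genes tested 0.728% were called.

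The largest rise by difference was in rhcga, which encodes an ammonia channel of the skin and gill. Vehicle pools held 2.22, 11.0, 11.2, 2.1 and 2.4 normalised reads, and NB2 pools 126, 136, 39.7, 237 and 33.9. Pools C and E were thus the lowest of the exposed pools and still above every vehicle pool (19.8-fold, 2.35 ± 0.28, adjusted p = 2.6e-06). It was the only called gene of 38 ionocyte and osmoregulation genes, and its relative rhbg had a difference of 0.32 and an adjusted p of 0.075. The call covered 2.63% of that list, against 0.728% of all genes tested. gvin1l2, named for very large interferon-induced GTPases, held 13.3, 14.6, 20.4, 13.7 and 14.4 in vehicle and 140.1, 161, 65.2, 196 and 144 in NB2 (9.24-fold, 2.16 ± 0.24, adjusted p = 4.7e-07). ankrd9, an ankyrin repeat gene, rose 7.39-fold from 27.8 ± 7.66 to 205 ± 126 (2.00 ± 0.26, adjusted p = 1.3e-05). The 3 genes were called in each alternative setting. si:dkey-33c14.3, which has no role attached here, held 581, 376, 249, 1846 and 203 in NB2 against a vehicle range of 96.6 to 247 (1.36 ± 0.31, adjusted p = 0.025), so that pool D carried much of its mean.

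A share of the immediate early genes rose, unequally across the exposed pools. Of 38 tested, 11 rose and 0 fell, or 28.9% of the list against 0.479% of all genes called higher. The median difference over the list was 0.26, and 29 of the 38 differences were above 0, against 12373 of 24853 over all genes. The 11 were fosab, fosaa, fosb, npas4a, nr4a1, nr4a3, ier2a, ier2b, egr4, junbb and btg2. fosab, a subunit of the AP-1 transcription factor, held 26.6, 32.9, 36.8, 27.3 and 24 normalised reads in vehicle pools A to E. The NB2 pools held 251, 246, 63.1, 467 and 48.3 (7.29-fold, 1.87 ± 0.29, adjusted p = 0.0004). npas4a, a transcription factor gene that responds to calcium entry in neurons, held between 0 and 4.21 in vehicle and 63, 68.6, 12.2, 98.7 and 5.13 in NB2 (20.5-fold, 1.71 ± 0.29, adjusted p = 0.0011). In both genes pools A, B and D were high, and pools C and E were the lowest exposed pools, though still above every vehicle pool. For npas4a that margin was slight, since before scaling pool E held 5 reads in NB2 and 5 in vehicle. The orphan nuclear receptor gene nr4a1 held 149, 150.2, 20.4, 168 and 50.3 in NB2 against a vehicle range of 12.2 to 31.6, so pool C was inside that range (1.39 ± 0.29, adjusted p = 0.012). Its relative nr4a3 rose 3.00-fold, from 122 ± 10.4 to 366 ± 225.

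The remaining members had smaller or less even changes. The differences were 1.14 ± 0.22 for fosaa, 1.20 ± 0.26 for fosb, 1.21 ± 0.27 for ier2b, 1.04 ± 0.23 for ier2a and 0.99 ± 0.22 for egr4. In an exact permutation test over the 10 pools, unadjusted p was 0.0635 for ier2b and 0.0556 for ier2a. The rest of the 11 had a permutation p under 0.05. junbb, another AP-1 subunit, rose 1.64-fold and btg2, an antiproliferative gene that p53 also induces, 1.55-fold. With each of the 10 pools left out in turn, junbb and btg2 were each called in 2 of the fits. Over all 38 genes the median distance from the vehicle mean was 0.53 in pool D, 0.34 in B, 0.26 in A, 0.10 in C and 0.08 in E, whereas in the vehicle pools it was between -0.04 and 0.05. Not every member moved: egr1 had a difference of 0.08 (adjusted p = 0.92), jun of -0.06, dusp1 of 0.05 and fosl2 of -0.02. egr2a had a negative difference of -0.84 (adjusted p = 0.076), and jund and atf3 had differences of 0.73 (adjusted p = 0.066) and 0.71 (adjusted p = 0.14). The count of 11 fell to 2 without NB2 pool D, to 3 without NB2 pool B, and to 7 without vehicle pool A or B. On the recovered reads (limma-voom, chosen after seeing the data) only fosaa passed. fosab and npas4a were called whichever pool was left out. fosaa and fosab are copies of one ancestral gene, and how reads in a shared stretch were counted was not checked.

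**Figure D2:**
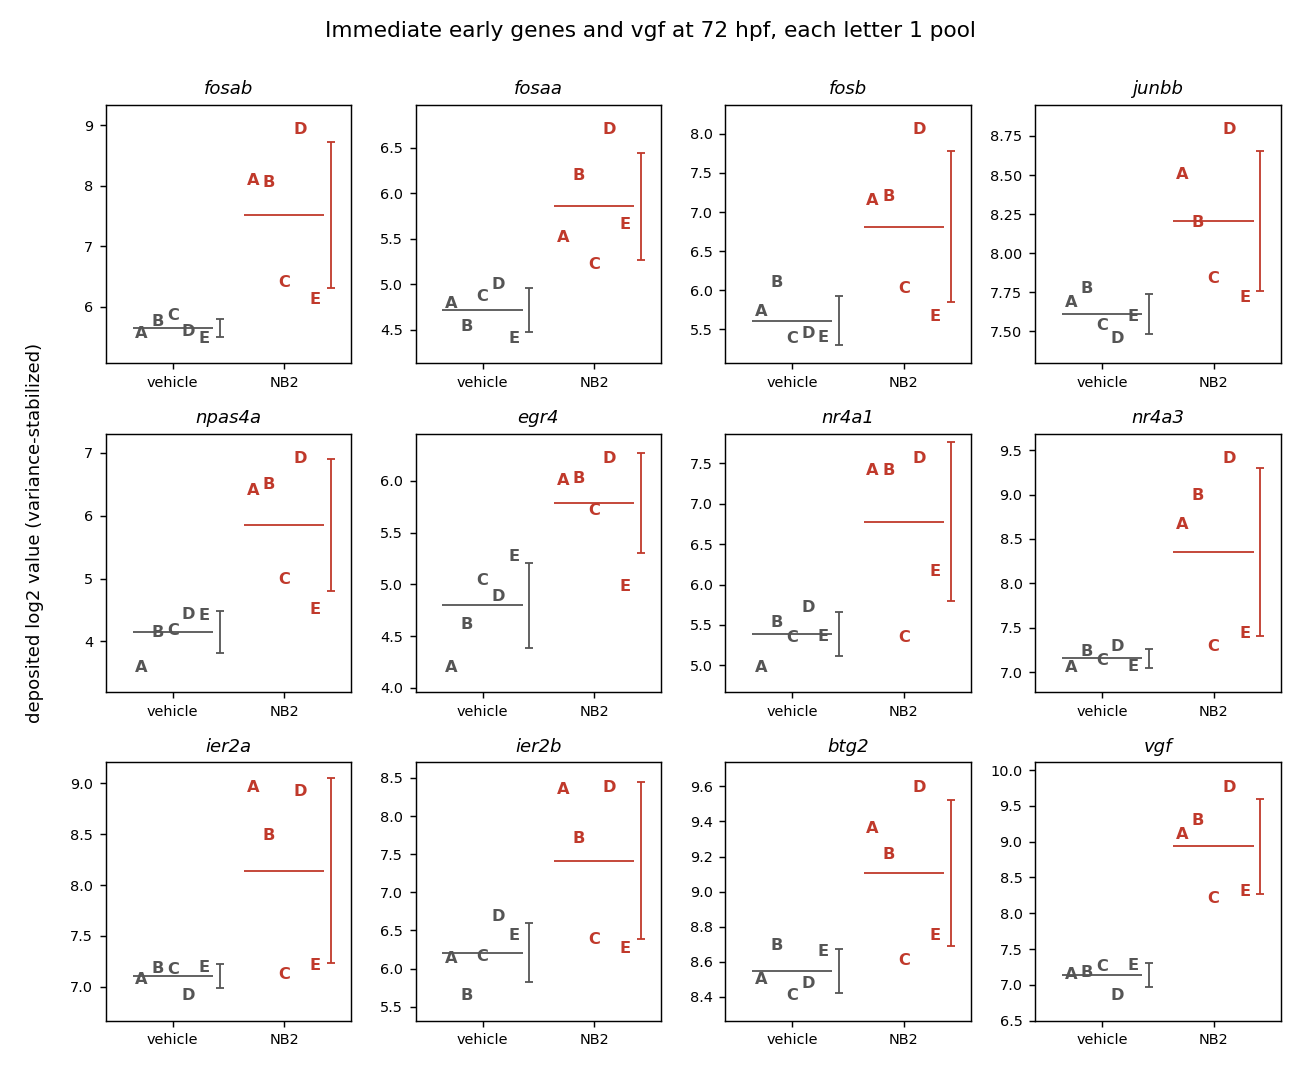
Deposited log2 values of the 11 immediate early genes called at 72 hpf and of vgf, by pool, with letters for pools, a line for the mean and a bar for the SD. NB2 pools D, A and B are usually high and C and E usually the lowest exposed pools, and in vgf all exposed pools lie above all vehicle pools.

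Some genes for secreted neural peptides, and sik1 and dre-mir-132-2, also rose, a grouping made after the values were seen and with no list behind it. In vgf, bdnf, scg2b and sik1 pools D, A and B were the highest exposed pools and C and E the lowest. The exposed pools of calca and dre-mir-132-2 had other orders. vgf, the precursor of several neuropeptides, held 119.9, 122, 132, 93.6 and 133 in vehicle and 532, 618, 277, 856 and 298 in NB2. All exposed pools were at least at the level of 277 and no vehicle pool was above 133 (4.30-fold, 1.80 ± 0.18, adjusted p = 6e-08), and the call held under each alternative. bdnf, the brain-derived neurotrophic factor gene, rose from 104 ± 21.2 to 261 ± 129 (1.06 ± 0.19, adjusted p = 0.0034). The secretogranin gene scg2b rose 1.58-fold and calca, the calcitonin gene, 2.02-fold. sik1, a kinase that restrains CREB coactivators, held 77.8 ± 5.2 in vehicle and 252.1, 233, 92.6, 267 and 83.2 in NB2 (0.92 ± 0.20, adjusted p = 0.016). dre-mir-132-2, the host locus of a microRNA that CREB induces in mammals, held between 0 and 3.16 in vehicle and between 4.07 and 25.0 in NB2 (0.96 ± 0.21, adjusted p = 0.019), which counts 3′ tags at that locus and not the mature microRNA. Leaving out NB2 pool D ended the calls of scg2b, calca, sik1 and dre-mir-132-2. Among 61 neuron and synapse genes 0 were called, against 0.728% of all genes tested, with a median difference of 0.07 and 48 of 61 above 0.

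Some genes of a glucocorticoid response list and some genes of fuel choice rose. Of 22 genes of that list, 3 rose and 0 fell, with a median of 0.20. Calls covered 13.6% of the list, against 0.728% of all genes tested. fkbp5, a co-chaperone of the glucocorticoid receptor, held 22.2, 21, 55.1, 50.5 and 14.4 in vehicle and 206, 207, 38.7, 346 and 81.1 in NB2 (5.39-fold, 1.69 ± 0.29, adjusted p = 0.0015), with pool C inside the vehicle range. pck1, which encodes the cytosolic enzyme that commits carbon to gluconeogenesis, rose 1.84-fold from 87.5 ± 18.7 to 161 ± 43.4 (0.72 ± 0.16, adjusted p = 0.016). sgk2b, a gene of the serum- and glucocorticoid-regulated kinase family, rose 2.37-fold, and whether glucocorticoids induce this member was not tested. pdk2b, whose kinase turns off pyruvate oxidation, held 18.9, 9.13, 7.15, 8.41 and 7.2 in vehicle and 79.0, 88.1, 20.4, 129 and 14.4 in NB2 (6.52-fold, 1.38 ± 0.27, adjusted p = 0.0082). Pool E of the exposed group was thus below vehicle pool A. On the recovered reads none of these 4 genes passed, with adjusted p of 0.068 for fkbp5, 0.16 for pck1, 0.124 for sgk2b and 0.26 for pdk2b (limma-voom). With each of the 10 pools left out in turn, fkbp5 was called in 10 of the fits, pdk2b in 9, pck1 in 7 and sgk2b in 3.

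Further called genes concern mitochondria and the supply of glucose, creatine and other fuels. They were again grouped after the values were seen and with no list behind the group, although ppargc1a and lpin1a belong to lists given below. ppargc1a and ppargc1b, the coactivators that drive mitochondrial biogenesis, held 1014 ± 80.3 and 522 ± 42.5 in vehicle. In NB2 ppargc1a held 1571, 1577, 1285, 1857 and 1212, all above the highest vehicle pool at 1139 (0.54 ± 0.09, adjusted p = 0.0011). ppargc1b held 739, 824, 644, 866 and 686, all above the highest vehicle pool at 588 (0.50 ± 0.09, adjusted p = 0.0027). Both calls held under each alternative. esrra, the nuclear receptor that these coactivators bind, rose 1.49-fold, and perm1b, a muscle regulator of the same program, 1.47-fold. With each of the 10 pools left out in turn, esrra and lpin1a were each called in 4 of the fits and perm1b in 9. On the recovered reads perm1b passed (adjusted p = 0.034, limma-voom). There esrra (adjusted p = 0.069) and lpin1a (adjusted p = 0.154) did not. slc25a25a, a calcium-dependent mitochondrial ATP-magnesium carrier, held 122, 129, 127, 168 and 134 in vehicle and 384, 302, 187, 432 and 208 in NB2 (2.23-fold, 0.98 ± 0.15, adjusted p = 0.00014). nmrk2, the nicotinamide riboside kinase of muscle, was tightly set in vehicle at 189, 184, 197, 196 and 187. The NB2 pools spread upwards from there, to 724, 538, 271, 741 and 382 (2.79-fold, 1.28 ± 0.17, adjusted p = 1.3e-05). The creatine transporter gene slc6a8 rose 1.54-fold from 760.2 ± 41.6 to 1174 ± 153 (0.60 ± 0.09, adjusted p = 0.00034). The glucose transporter gene slc2a3a (0.45 ± 0.10), the glutaminase gene glsb (0.43 ± 0.11), the pyruvate dehydrogenase kinase gene pdk3a (0.41 ± 0.10) and the lipin gene lpin1a (0.73 ± 0.17) were also called higher. Of 55 genes of fatty acid oxidation and PPAR signaling 2 rose, and these were ppargc1a and pdk2b, so none of the enzymes of β-oxidation in that list was called. Calls covered 3.64% of the list, against 0.728% of all genes tested. In a list of 24 genes of fatty acid and triglyceride synthesis lpin1a was the only call, or 4.17%.

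Some muscle genes rose. Of 74 skeletal muscle genes 2 rose, tcap and igfn1.3, with a median difference of 0.05 over the list, and of 31 heart genes ankrd1b rose. Calls covered 2.70% of the skeletal muscle list and 3.23% of the heart list, against 0.728% of all genes tested. Outside these lists, mylk4b, a myosin light chain kinase, held 74.4, 91.3, 131, 106 and 80.01 in vehicle and 211, 249, 182, 213 and 247 in NB2. Its exposed pools kept to a narrow range, pool C included (2.28-fold, 1.04 ± 0.12, adjusted p = 1.1e-06). Its paralog mylk4a rose 2.08-fold (0.86 ± 0.16, adjusted p = 0.0042), and how reads that match both were counted was not checked. tcap, the titin cap gene, held 56.6, 34.7, 30.6, 31.6 and 45.6 in vehicle and 193, 144, 32.6, 464 and 69.8 in NB2 (1.34 ± 0.34, adjusted p = 0.046). The exposed mean of tcap rested on pool D, and the call held in 2 of 10 fits that each left out a pool. ankrd1b, a stretch-responsive ankyrin repeat gene, rose 1.73-fold, and the α-kinase gene alpk3a, in no list, 1.96-fold. igfn1.3, a sarcomeric immunoglobulin and fibronectin protein, rose from 1846 ± 30.3 to 2506 ± 345 (0.43 ± 0.09, adjusted p = 0.014), and the myomesin gene myom1b rose 1.21-fold.

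Single genes of oxygen sensing, thyroid hormone and the clock were called. The calls covered 6.25% of the hypoxia genes, 10.0% of 20 thyroid hormone genes (1 higher, 1 lower) and 2.27% of the circadian genes tested, against 0.728% of all genes. Of 32 hypoxia genes, pfkfb4b and hif1al (0.42 ± 0.09) rose, with a median of 0.25 and 26 of 32 above 0. pfkfb4b makes the activator of glycolytic phosphofructokinase and held 527, 462, 264, 489.8 and 243 in NB2 against a vehicle range of 197 to 252.2 (0.73 ± 0.15, adjusted p = 0.0099). egln2, an oxygen-dependent prolyl hydroxylase gene outside that list, rose with little spread, from 84.1 ± 12.8 to 149 ± 6.82 (1.77-fold, 0.70 ± 0.13, adjusted p = 0.0033). dio3b, whose deiodinase inactivates thyroid hormone, rose 1.63-fold from 231 ± 34.9 to 377 ± 47.4 (0.66 ± 0.13, adjusted p = 0.0089). duox, the dual oxidase that supplies hydrogen peroxide for thyroid hormone synthesis and for epithelia, fell and is described below. Of 44 circadian genes only hlfa, a PAR bZIP transcription factor, was called (0.60 ± 0.11, adjusted p = 0.0045). The signalling and transcription genes tob1a, tob1b, klf13, hdac5 and mef2d, and also kpna3, rose between 1.26-fold and 1.67-fold. Of these, tob1a and kpna3 were called in each alternative setting.

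Among the genes that fell, 9 named here encode RNA-binding and splicing proteins, a grouping made after the values were seen and with no list behind it. How many such genes were tested was not counted. No share can therefore be set beside the 0.249% of all genes that were called lower, and the 9 are a description only. These 9 fell by small amounts with little spread between pools. The mRNA export gene chtopb, described below, is not among them and fell by more and less evenly. hnrnpa0b, a heterogeneous nuclear ribonucleoprotein, held 1339.9, 1413, 1249, 1303 and 1572 in vehicle and 810.5, 951, 1086, 982 and 1053 in NB2 (-0.49 ± 0.10, adjusted p = 0.01). taf15, an RNA-binding protein of the FET family, held between 1625 and 1823 in vehicle and between 1223 and 1481 in NB2 (-0.38 ± 0.08, adjusted p = 0.01). The groups of pools did not overlap in either gene. The core spliceosome proteins snrpg (-0.46 ± 0.10) and lsm3 (-0.43 ± 0.09), the hnrnpk gene (-0.37 ± 0.08), the splicing factor srsf5a (-0.27 ± 0.06), the RNA helicase ddx39b (-0.38 ± 0.10) and the RNA-binding genes khdrbs1a (-0.22 ± 0.06) and ybx1 (-0.32 ± 0.08) also fell. Called whichever pool was left out were hnrnpa0b and taf15, while ddx39b was called in 0 of those 10 fits.

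A few chromatin and proliferation genes fell by small amounts. pcna, the sliding clamp of DNA replication, held 1996, 2195, 1997, 2387 and 2392 in vehicle and 1928, 1649, 1849, 1541 and 1769 in NB2 (-0.32 ± 0.08, adjusted p = 0.044). It was the only called gene of 61 proliferation and kinetochore genes, or 1.64% against 0.728% of all genes tested. The median of that list was -0.15 with 12 of 61 above 0. The chromatin protein gene hmgb2b fell 1.42-fold, the histone variant gene h3f3a 1.23-fold and the tubulin gene tubb2b 1.25-fold. These calls were sensitive to single pools, since pcna was called in 4 and hmgb2b in 1 of the 10 fits that each left out a pool. Of 78 ribosomal protein genes and 47 proteasome genes none was called, with medians of -0.08 and -0.09 and with 9 of 78 and 14 of 47 above 0.

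A few genes of epithelia, pigment and other tissues fell. anxa1c, an annexin A1 gene, held 1307, 1199, 1164, 1519 and 1519 in vehicle and 1035, 788, 1021, 906 and 962 in NB2. Each exposed pool was below each vehicle pool (1.42-fold lower, -0.50 ± 0.09, adjusted p = 0.0033). s100a10b, whose protein binds annexin A2, held 612, 595, 628, 582 and 616 in vehicle and 437, 425, 468, 497 and 435 in NB2 (-0.41 ± 0.08, adjusted p = 0.0052). duox held 189.8, 179, 149, 144 and 170.4 in vehicle and 103, 68.6, 122, 59.9 and 65.7 in NB2 (1.98-fold lower, -0.86 ± 0.17, adjusted p = 0.0067). These 3 genes, anxa1c, s100a10b and duox, were the falls called in every alternative setting. The call covered 1 of 27 annexin and phospholipase A2 genes (3.70%) and 1 of 48 skin and keratin genes (2.08%), against 0.728% of all genes tested. Of 40 genes of pigment cells and purine synthesis, dct, which encodes a melanin synthesis enzyme, fell 1.52-fold (-0.51 ± 0.13, adjusted p = 0.044). mitfa, the pigment cell regulator, had a difference of -0.47 (adjusted p = 0.11). The endodermal transcription factor gene foxa3 fell 1.74-fold, from 82.5 ± 11.6 to 47.5 ± 6.91. cd8a, the coreceptor gene of cytotoxic T cells, held 0, 6.39, 8.17, 6.31 and 8 in vehicle and 0 in each NB2 pool, 31 reads against 0 (-0.86 ± 0.18, adjusted p = 0.01). With 3 reads over the group in place of 0 it was at least 9.75-fold lower, and vehicle pool A also held no read. It was the only called gene of 29 lymphocyte and thymus genes, or 3.45%, as dct was of the 40 pigment cell and purine synthesis genes, or 2.5%.

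**Figure D3:**
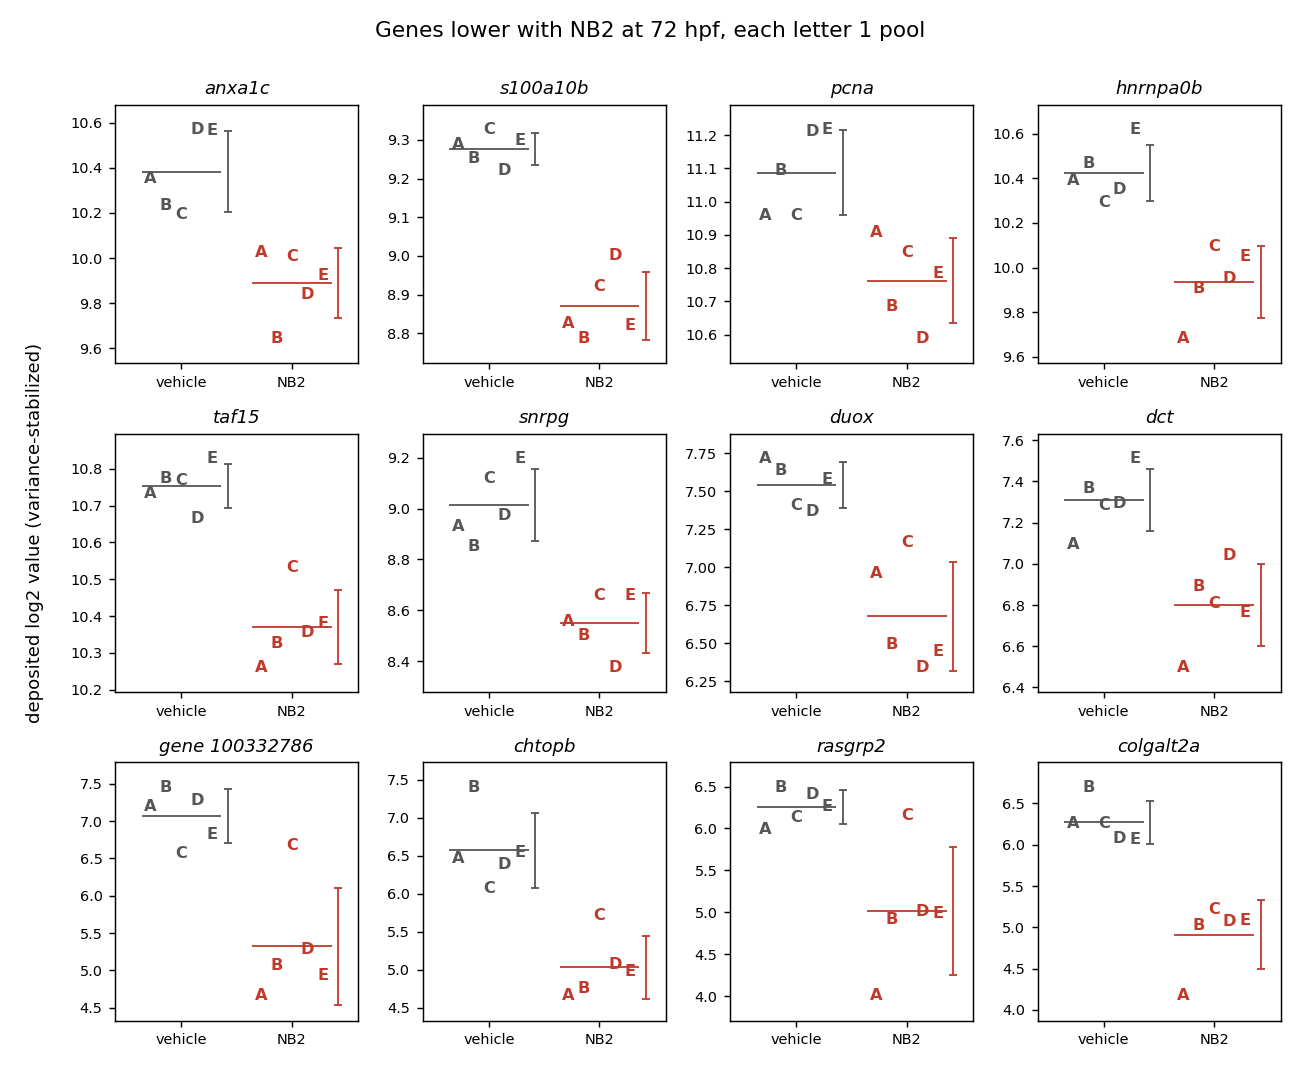
Deposited log2 values of 12 genes that fell, by pool, with letters for pools, a line for the mean and a bar for the SD. The pools of anxa1c, s100a10b and hnrnpa0b separate by group with little spread, whereas in gene 100332786 and rasgrp2 NB2 pool C lies among the vehicle pools.

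Apart from duox, the 15 largest falls named by size had low to moderate levels, and in several of them NB2 pool C stood apart from the other exposed pools. The gene with identifier 100332786, which has no role attached here, held 125, 154, 73.5, 135 and 92.0 in vehicle and 7, 13.9, 80.4, 18.8 and 11.3 in NB2 (-1.74 ± 0.36, adjusted p = 0.011). Pool C stood within the vehicle range and the other 4 exposed pools were far below it. rasgrp2, which encodes an exchange factor of Rap GTPases, showed the same layout, with 1, 11.13, 49.9, 12.9 and 12.3 in NB2 against a vehicle range of 42.2 to 68.5 (-1.24 ± 0.30, adjusted p = 0.038). In chtopb, a chromatin and mRNA export gene, pool C held 31.6 and the other exposed pools 7 to 14.1, against a vehicle range of 45.9 to 148 (5.38-fold lower, -1.54 ± 0.34, adjusted p = 0.018). The collagen galactosyltransferase gene colgalt2a held 2, 13.0, 17.3, 14.1 and 14.4 in NB2 against 45.6 to 82.2 in vehicle (4.69-fold lower, -1.36 ± 0.28, adjusted p = 0.01). The Ras and Rab interactor gene rin1b fell 2.89-fold (-1.11 ± 0.22, adjusted p = 0.0067).

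The other large falls were si:dkey-29j8.1 (-1.25 ± 0.27), the connexin gene gjb1b (-1.18 ± 0.30), usf2l (-1.18 ± 0.30), the phosphatase gene ptpn18 (-1.08 ± 0.27), zgc:174356 (-1.01 ± 0.25), ndufa13, a subunit of respiratory complex I (-0.96 ± 0.22), the diacylglycerol kinase gene dgkb (-0.90 ± 0.20), zgc:63569 (-0.76 ± 0.16) and mtus1a (-0.66 ± 0.17). gjb1b held 13.0, 22.3, 81.4, 39.9 and 27.7 in NB2 against a vehicle range of 74.4 to 127, so pool C again lay inside it. si:dkey-29j8.1 and mtus1a did not share that layout, with pool C at 51.9 and 49.9 beside pool B of 52.9 and pool A of 49.03. Called whichever pool was left out were gene 100332786, colgalt2a and rin1b. gjb1b, rasgrp2, ptpn18 and zgc:174356 were each called in 1 of those 10 fits. On the recovered reads rin1b (adjusted p = 0.04, limma-voom), dgkb (adjusted p = 0.048) and zgc:63569 (adjusted p = 0.034) passed, and gene 100332786 (adjusted p = 0.079) and colgalt2a (adjusted p = 0.079) did not.

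Many of the pathways looked at had no called member at 72 hpf. As 0.728% of all genes tested were called, lists of this size without a call are near that share. Of 40 genes of the integrated stress response 0 passed, with a median of 0.06 and an adjusted p of 0.085 for ddit3, its proapoptotic transcription factor (difference 0.39). None of 35 heat shock genes passed, although hspb9 had a difference of 1.09 and an adjusted p of 0.053. Outside that list the Hsp70 family gene hspa14 was called higher (1.42 ± 0.33, adjusted p = 0.026, limma). Its call held in 4 of the 10 fits that each left out a pool. Also without a call were 27 genes of endoplasmic reticulum stress, 30 of cholesterol synthesis, 29 of lipoproteins, 59 of amino acid breakdown and 22 of serine and one-carbon metabolism. The same was so for 71 photoreceptor genes, 61 lens crystallin genes, 33 erythrocyte genes, 47 cartilage, bone and tooth genes and 30 myeloid genes. With this test a gene outside the calls is not shown to be unchanged, and the differences that missed the threshold include those of klf9 (0.85, adjusted p = 0.051), a glucocorticoid target, and of gck (-0.78, adjusted p = 0.058), the glucokinase gene.

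The NB2 effect at 72 hpf was set beside the effects at 48 and 96 hpf, which share no pool with it. The comparison at 48 hpf rested on 8 columns, against 10 at 72 hpf and 10 at 96 hpf. At 48 hpf 0 genes were called (limma), and 1195, or 4.81%, had an unadjusted p under 0.05. At 96 hpf 4568 genes were called, 18.4% of those tested, 2044 higher (8.22%) and 2524 lower (10.2%). Of the 119 genes that rose at 72 hpf, 89 were called higher at 96 hpf, which is 74.8% of the earlier list and 4.35% of the later. Of the 62 that fell, 11 were called lower at 96 hpf, or 17.7% of the earlier list and 0.436% of the later. Genes called in opposite directions at the 2 ages numbered 4 of those that rose and 4 of those that fell. The median difference of the 119 was -0.05 at 48 hpf, 0.69 at 72 hpf and 0.79 at 96 hpf. For the 62 it was 0.16, -0.76 and 0.15. Because the genes were chosen at 72 hpf, a return towards 0 at another age is partly built into these medians.

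**Figure D4:**
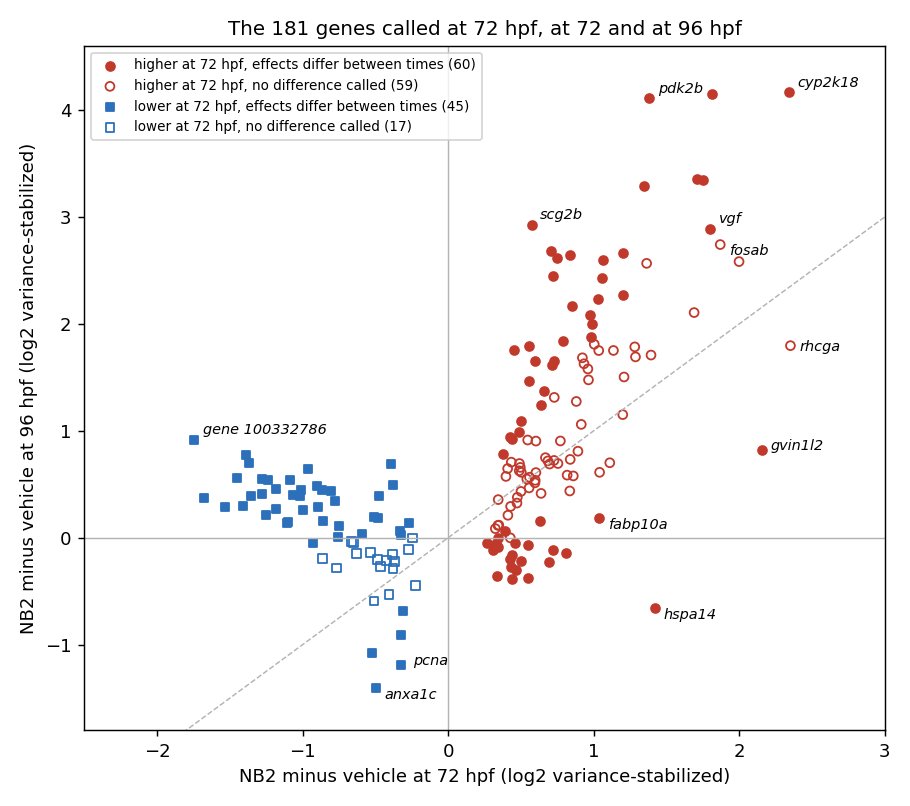
NB2 minus vehicle at 96 hpf against the same at 72 hpf on the log2 scale for the 181 genes called at 72 hpf, with filled points where the effects differed between the ages. Most rises lie above 0 at both ages, whereas most falls lie near or above 0 at 96 hpf.

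The difference of the effect between 96 and 72 hpf was tested as an interaction in the same fit and passed in 3028 genes, 12.2% of those tested. Among the rises at 72 hpf, it was greater at 96 hpf in 35 and smaller or opposite in 25. Among the falls, it was more negative at 96 hpf in 5 and less negative or opposite in 40. The interaction uses the 72 hpf pools that chose these genes, so lesser effects at 96 hpf are partly built into these counts. Of the genes with a greater effect at 96 hpf, some are given here for the size of the increase, chosen after the values were seen. The effect on scg2b went from 0.57 at 72 hpf to 2.93 at 96 hpf, on pdk2b from 1.38 to 4.11, on pck1 from 0.72 to 2.45, on tcap from 1.34 to 3.29 and on calca from 0.75 to 2.62. That on cyp2k18 went from 2.34 to 4.17 and its mean from 81.1 to 1354 normalised reads in NB2, while vehicle went from 3.48 to 57.1. Other rises passed no test of a difference between the ages, among them nr4a1 (adjusted p = 0.70 for the difference), ier2b (0.70), ppargc1b (0.66), fkbp5 (0.59), agxtb (0.58), fosaa (0.22), fosab (0.18) and nmrk2 (0.18). Of the 38 immediate early genes 24 were called higher at 96 hpf and 15 had a greater effect there. Of all 24853 genes tested, 2044 (8.22%) were called higher at 96 hpf and 1413 had a greater effect. Of the 61 proliferation genes 50 were called lower at 96 hpf and 31 had a more negative effect, pcna among them (-0.32 against -1.19). For all genes tested these counts were 2524 (10.2%) and 1615. The effect on anxa1c also grew, from -0.50 to -1.41.

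Other effects were stronger at 72 hpf, the age at which the genes were chosen. gvin1l2 had an effect of 2.16 at 72 hpf and of 0.82 at 96 hpf (adjusted p of the difference 0.006). fabp10a had 1.04 against 0.18 (adjusted p of the difference 0.034). Its vehicle mean went from 9.29 normalised reads at 48 hpf to 214 at 72 hpf and 1592 at 96 hpf, and its NB2 mean from 10.8 to 471 and 1839. hspa14, an Hsp70 family gene, had an effect of -1.18 at 48 hpf, 1.42 at 72 hpf and -0.66 at 96 hpf, and its reads were uneven within vehicle, with 23.3 in pool A and at most 1.05 in the others at 72 hpf. In the 15 largest falls other than duox and mtus1a, the effect at 96 hpf was less negative or opposite by the interaction test. These genes were picked for the size of their fall at 72 hpf, so a lesser effect at 96 hpf is partly built in. Gene 100332786 had an effect of -1.74 at 72 hpf and 0.92 at 96 hpf, chtopb of -1.54 and 0.29, and rasgrp2 of -1.24 and 0.54. The effects on kpna3 (0.63 against 0.15), igfn1.3 (0.43 against -0.20) and ahr2 (0.32 against -0.06) were also smaller at 96 hpf, with adjusted p of 0.049, 0.00087 and 0.014 for the difference. The effects on ppargc1a (0.54 and 0.55), slc6a8 (0.60 and 0.61), egln2 (0.70 and 0.69) and abcc5 (0.34 and 0.36) had like values at the 2 ages.

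Against 48 hpf, the difference of the effect at 72 hpf passed in 49 genes, 0.197% of those tested. Without NB2 pool B, NB2 pool D, vehicle pool E or vehicle pool B the count was 18, 23, 25 and 32, and without NB2 pool A or C it was 115 and 117. The 49 included 29 of the 119 rises and 11 of the 62 falls, which is not independent of the choice of these genes at 72 hpf. Among them were cyp2k18, whose effect was -0.27 at 48 hpf, vgf (-0.41), fosab (-0.22), rhcga (0.02), nmrk2 (-0.12) and abcc2 (0.07). Among the falls were taf15, whose effect was 0.20 at 48 hpf, hnrnpa0b (0.27) and s100a10b (0.19). The vehicle means of taf15 and hnrnpa0b were 2288 and 1710.3 normalised reads at 48 hpf, 1732 and 1375 at 72 hpf, and 1049 and 624 at 96 hpf.

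**Figure D5:**
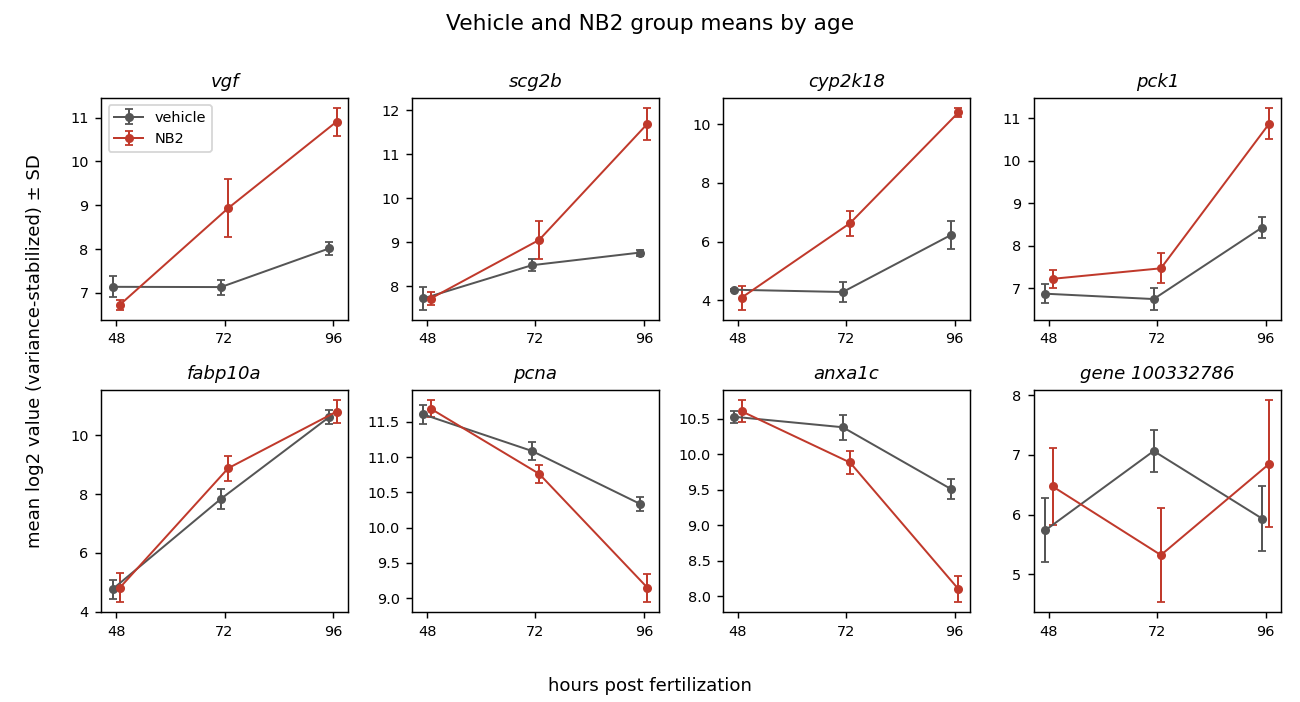
Mean log2 values with SD of 8 genes in vehicle and NB2 pools at 48, 72 and 96 hpf. The NB2 means of cyp2k18 and vgf are below vehicle at 48 hpf and above it at 72 and 96 hpf, while those of fabp10a are close to vehicle at 48 hpf, higher at 72 hpf and close again at 96 hpf.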

How the data were processed

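The deposited values of the NB2 time course are log2 values that the authors made with the variance-stabilizing transformation of DESeq2, after aligning reads to GRCz11 with STAR, counting them per gene and strand with HTSeq and adding up the flow cells of a sample. Versions are not given in the sources used here. This transformation compresses differences of genes with few reads. Inverting it gave whole reads for 100% of values to within 0.01, and normalised reads are these divided by the size factor. The values are not counts, so limma 3.58.1 in R 4.3.3 with a mean trend was fitted over 28 columns in 6 groups, on the 24853 genes that exceeded the lowest value in 4 or more columns, with Benjamini-Hochberg adjustment over all of them. Tables of other exposures, and the authors' fold changes, p-values and enrichment terms, were not used. Symbols came by gene identifier from a RefSeq table of another assembly (GRCz12tu), which matched 23971 of 26992 identifiers, and 21513 had a symbol. Of the 181 called genes 162 had a symbol. Of the 30 samples of the time course 2, both of 48 hpf, have no column and are not analysed here.

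The text names, first, the called genes with a symbol that changed most (15 in each direction, where the mean of the higher group exceeded the median of the genes tested), then the called members of each gene list and, by role, other called genes. The members, the lists and the tests were chosen with earlier results of these data known, so list counts are descriptions. The smallest p of an exact permutation test with 5 against 5 pools is 0.00794. Alternatives were another set of columns, filters, variance models, sample weights, scaling, a letter block, leaving out each pool and, chosen after seeing the data, limma-voom on the recovered reads. Only the main fit was tested on simulated data, and only for NB2 against vehicle at the age compared here. The alternatives and the differences of the effect between ages were not tested in that way.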

Additional observations from a re-analysis of the deposited data

Results flagged for a closer look

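The 62 genes looked at here are the 30 named by size and the called members of the gene lists. In 7 of their 124 groups of 5 pools the gap from the highest or lowest pool to the nearest other exceeded 0.71 of the range (Dixon's test), which chance gives in about 1 of 20 groups. In vehicle these were the highest pool of gvin1l2 (pool C, gap over range 0.797), of pdk2b (pool A, 0.784) and of si:dkey-29j8.1 (pool D, 0.897), and the lowest pool of fabp10a (pool C, 0.768) and of cd8a (pool A, 0.884). In NB2 they were the highest pool of dgkb (pool C, 0.716) and the lowest of colgalt2a (pool A, 0.808).

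The NB2 effect differed between 96 and 72 hpf in 38 of the 62 genes by the interaction test in limma, given here as the effect at 96 minus that at 72 hpf on the log2 scale. Since the genes were chosen by their calls at 72 hpf, this is not independent of the choice. Rises were greater at 96 hpf in cyp2k18 (1.83), vgf (1.09), npas4a (1.65), pdk2b (2.73), tcap (1.94), fosb (1.46), nr4a3 (1.07), cyp3a65 (1.2), egr4 (1.02), sgk2b (1.31), lpin1a (0.922), pck1 (1.72), dio3b (0.713), junbb (1.06), btg2 (1.23), cyp2y3 (0.485) and hif1al (0.521). They were smaller or opposite in gvin1l2 (-1.34), fabp10a (-0.859), igfn1.3 (-0.623) and ahr2 (-0.382). Falls were more negative at 96 hpf in pcna (-0.865) and anxa1c (-0.912). Falls were less negative or opposite in dct (0.702), zgc:63569 (0.764), cd8a (1.31), dgkb (1.18), ndufa13 (1.61), zgc:174356 (1.46), ptpn18 (1.63), rin1b (1.25), usf2l (1.64), gjb1b (1.45), rasgrp2 (1.78), si:dkey-29j8.1 (1.47), colgalt2a (1.75), chtopb (1.83) and gene 100332786 (2.66).

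The effect at 72 hpf differed from that at 48 hpf in 14 of the 62 genes, given as 72 minus 48 hpf. This too is not independent of the choice of the genes at 72 hpf. It was higher at 72 hpf in rhcga (2.34), cyp2k18 (2.61), gvin1l2 (1.92), ankrd9 (1.81), fosab (2.09), vgf (2.21), nmrk2 (1.4), fosaa (1.52), cyp3a65 (1.36), fabp6 (1.27) and abcc2 (0.814). It was lower in s100a10b (-0.6), zgc:63569 (-1.11) and gene 100332786 (-2.48).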

How the results depend on the processing

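No named gene changed direction in any setting. Of 162 called genes with a symbol, calls were lost in 0 with array quality weights, 2 with centred columns, 21 with quantile normalization, 23 in a fit of the 10 columns of 72 hpf only, 38 with robust moderation, 53 without a filter, 90 with limma-voom on the recovered reads, 112 with the letter block and 115 without the mean trend. The cause of each loss was not tested. Leaving out a pool lost between 7 (NB2 pool C) and 111 (NB2 pool D).

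Counts of rises and falls at 72 hpf, 119 and 62 (181 in all), became 119 and 172 (291) with only the 10 columns of 72 hpf, 88 and 35 (123) without a filter, 41 and 13 (54) without the mean trend, 95 and 39 (134) with robust moderation, 220 and 162 (382) with array quality weights, and 55 and 23 (78) with limma-voom. Leaving out each pool gave 41 to 251 rises, 17 to 251 falls and 58 to 502 in all. The 11 immediate early genes became 7 with the 10 columns only, 7 without a filter, 3 without the mean trend, 4 with robust moderation and 1 with limma-voom, and 2 to 12 without a pool. The 49 genes whose effect differed between 72 and 48 hpf became 29 without a filter, 4 without the mean trend, 185 with array quality weights and 21 with limma-voom, and 18 to 117 without a pool. The 3028 that differed between 96 and 72 hpf stayed between 2405 and 3497, and between 2570 and 3099 without a pool.

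The letters were not treated as pairs in the main fit, and the labels do not say whether they are. Deviations of same-letter pools correlated at -0.19, 0.03, -0.03, -0.01 and -0.07 for A to E, against a mean of 0.01 for different letters. These correlations cannot show whether same-letter pools shared a plate or a day. With the letter as a replicate block 38 genes rose and 29 fell (67 in all), with 1 immediate early gene. Between 9085082 and 13647002 reads a pool, genes with a few reads, such as cd8a, rest on counts that sampling alone moves.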
